A study of Homo sapiens with 48 samples.

Results

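The hypoxia and glycolysis genes examined here are 10 named genes, ADM, VEGFA, ANKRD37, BNIP3, HK2, PFKFB3, LDHA, SLC2A1, PGK1 and ALDOC, of 24462 gene symbols in the count files. They were taken by symbol, and each was found on 1 row of every file. All 10 passed the filter on low counts that left 15642 genes, and all 10 passed it also when the mercuric chloride libraries were left out. RNA had been sequenced from THP-1 cells, a human monocytic leukemia line, after 12 h with 1 of 12 chemicals, each in 3 libraries and each at its CV90, a concentration set by cell viability, whose molar value the labels do not state. Cyclosporine and tacrolimus inhibit calcineurin, dexamethasone and prednisolone are glucocorticoids, aciclovir and ribavirin are nucleoside analogues, and tofacitinib inhibits Janus kinases. The remaining agents were bacterial lipopolysaccharide (LPS), genistein (an isoflavone), mercuric chloride, benzoic acid (a preservative) and sodium lauryl sulfate (a detergent). Vehicle (DMSO) and untreated libraries each came as series 1 and series 2, with 3 libraries per series, which makes 16 groups and 48 libraries in all. The labels do not say which control series belongs to which chemical. The titles of the vehicle libraries give DMSO at 0.1, 0.2 and 0.3% in series 1 and at 0.4, 0.5 and 0.6% in series 2, whereas the protocol states 0.1%, so DMSO percentage and replicate number cannot be told apart within a series.

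When oxygen is short, the hydroxylases of the EGLN family stop marking the HIF alpha subunits for destruction by the VHL ubiquitin ligase, and HIF binds a short core sequence in its target genes together with ARNT. Its targets raise glucose uptake and glycolysis, so that ATP can be made without mitochondrial oxygen use, and secrete signals that widen and build vessels. In monocytes and macrophages the same genes are also known to respond to bacterial products, and metal ions can act on the oxygen-sensing enzymes.

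Promoter windows are shown because a HIF core near the start is the sequence feature this gene set is known for. RefSeq windows on GRCh38.p14, from 250 bases before to 50 after a gene's start, were matched for 9 of the 10 members, VEGFA being the other, and HK2, PFKFB3 and LDHA had a pair of windows each. The search took ACGTG or GCGTG on either strand as the hypoxia response core. The palindrome CACGTG counts once per strand, and the metal response core TGCACNC or TGCGCNC was searched in the same way. Capitals mark the hypoxia core, read as CACGT or CACGC where it lies on the other strand. ADM and ALDOC are printed because, of the members with a window, their transcripts had the largest fold changes with mercuric chloride, PGK1 because its transcript had the smallest, and LDHA because its window is among those with most matches.
ADM (chr11:10304823-10305122, plus strand): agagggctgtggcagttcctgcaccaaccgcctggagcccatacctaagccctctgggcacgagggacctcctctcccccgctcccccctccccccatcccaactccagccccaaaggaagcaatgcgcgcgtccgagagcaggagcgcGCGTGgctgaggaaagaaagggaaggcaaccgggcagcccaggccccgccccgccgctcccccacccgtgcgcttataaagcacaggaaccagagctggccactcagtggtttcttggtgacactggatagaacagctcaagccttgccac
ALDOC (chr17:28576846-28577145, minus strand): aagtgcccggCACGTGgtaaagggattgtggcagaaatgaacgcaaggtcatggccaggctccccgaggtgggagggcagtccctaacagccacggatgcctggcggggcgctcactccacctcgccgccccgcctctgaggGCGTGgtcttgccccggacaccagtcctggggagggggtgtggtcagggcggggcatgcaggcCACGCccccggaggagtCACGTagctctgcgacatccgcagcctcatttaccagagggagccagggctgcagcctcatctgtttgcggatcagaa
PGK1 (chrX:78103998-78104297, plus strand): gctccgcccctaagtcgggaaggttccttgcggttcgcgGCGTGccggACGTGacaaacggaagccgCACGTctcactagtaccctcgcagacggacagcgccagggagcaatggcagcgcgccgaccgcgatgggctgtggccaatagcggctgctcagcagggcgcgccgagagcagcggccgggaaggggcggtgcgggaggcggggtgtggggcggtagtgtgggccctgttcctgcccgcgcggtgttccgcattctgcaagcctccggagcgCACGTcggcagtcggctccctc
LDHA (chr11:18394313-18394612, plus strand): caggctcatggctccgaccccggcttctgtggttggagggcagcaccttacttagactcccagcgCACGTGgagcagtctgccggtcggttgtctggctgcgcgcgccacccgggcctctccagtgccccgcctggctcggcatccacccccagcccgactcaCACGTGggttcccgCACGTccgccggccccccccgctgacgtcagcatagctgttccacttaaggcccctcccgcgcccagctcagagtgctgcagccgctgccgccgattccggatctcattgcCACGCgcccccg
The hypoxia core occurred once in the ADM window, 5 times in ALDOC, 4 times in PGK1 and 6 times in the first LDHA window. All 12 member windows held at least 1 match, and so did 48.4% of the 35116 windows in the whole table, while 10.1% of the whole table held 3 or more. The core holds a CG pair, and the bases of the member windows were 65.0 to 80.7% G or C. The share among windows of like composition was not counted. BNIP3 and the second HK2 window held 6 matches each, ANKRD37 and the first HK2 window 3 each, the PFKFB3 windows 1 and 2, and SLC2A1 and the second LDHA window 1 each. The metal core was found in 29.6% of all windows. Among members that rose with mercuric chloride it occurred once in ADM and not in ALDOC or PFKFB3. Among those that did not, BNIP3 held 3 matches, the HK2 windows 3 and 1, the LDHA windows 1 and 4, PGK1 held 1, and SLC2A1 and ANKRD37 held 0. These matches are letters in a window and do not show binding.

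Library totals ran from 5952817 to 11496950 counts. The 8 monocytic markers examined summed to 364 to 788 CPM (counts scaled to the library total) per library with CD14 low, at 0.504 to 6.25 CPM, and the T cell marker CD3E had 0 counts in all 48 libraries. Mercuric chloride libraries stood apart: they had counts in 18748 symbols on average and 12.0% of all counts in their top 10 genes, where the group means elsewhere were 16310 to 16945 symbols and 5.58 to 6.02%. Dexamethasone replicate 3 lay farthest from the other libraries of its group, with a root mean square distance of 0.901 on the log2 scale, where libraries of the other groups lay between 0.364 and 0.525. Results that rest on it are given with and without it. Levels below are CPM after TMM scaling, and they are not compared between genes because the counts are not per length. A gene was called, and is said to have risen or fallen, when edgeR's quasi-likelihood test gave a Benjamini-Hochberg adjusted p under 0.05 over all 15642 genes, with the larger p of the tests against vehicle series 1 and vehicle series 2 and the same sign in both. The log2 fold changes are means over both series, with their standard error (SE).

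Of 120 pairs of a member and a treatment, 9 were called. Mercuric chloride raised ADM, VEGFA, PFKFB3 and ALDOC (4 of 10 members higher and 0 lower, where 21.8% of all genes were called higher, 20.1% lower and 41.9% in either direction). LPS raised VEGFA and lowered LDHA, where 4.56% of all genes were called higher, 2.64% lower and 7.2% in either direction. VEGFA alone was called with tofacitinib, sodium lauryl sulfate and cyclosporine, where 1.09, 0.281 and 0.703% of all genes were called higher. The shares called lower were 1.23, 0.0256 and 0.128%, and those in either direction 2.32, 0.307 and 0.831%. ANKRD37, BNIP3, HK2, SLC2A1 and PGK1 were called with no treatment by this rule.

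In the other 7 treatments edgeR called 0 members, and so did DESeq2 and limma-voom. At an unadjusted p under 0.05, 2 members passed with genistein, 2 with tacrolimus, 1 with prednisolone, 1 with ribavirin and 0 with aciclovir, benzoic acid and dexamethasone. The share of all genes called in either direction was 0.237% with aciclovir, 0.032% with benzoic acid, 8.57% with dexamethasone, 0.237% with genistein, 1.96% with prednisolone, 0.147% with ribavirin and 0.0575% with tacrolimus. The heat map of fold changes shows VEGFA as the member that rose with most treatments.

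**Figure D1:**
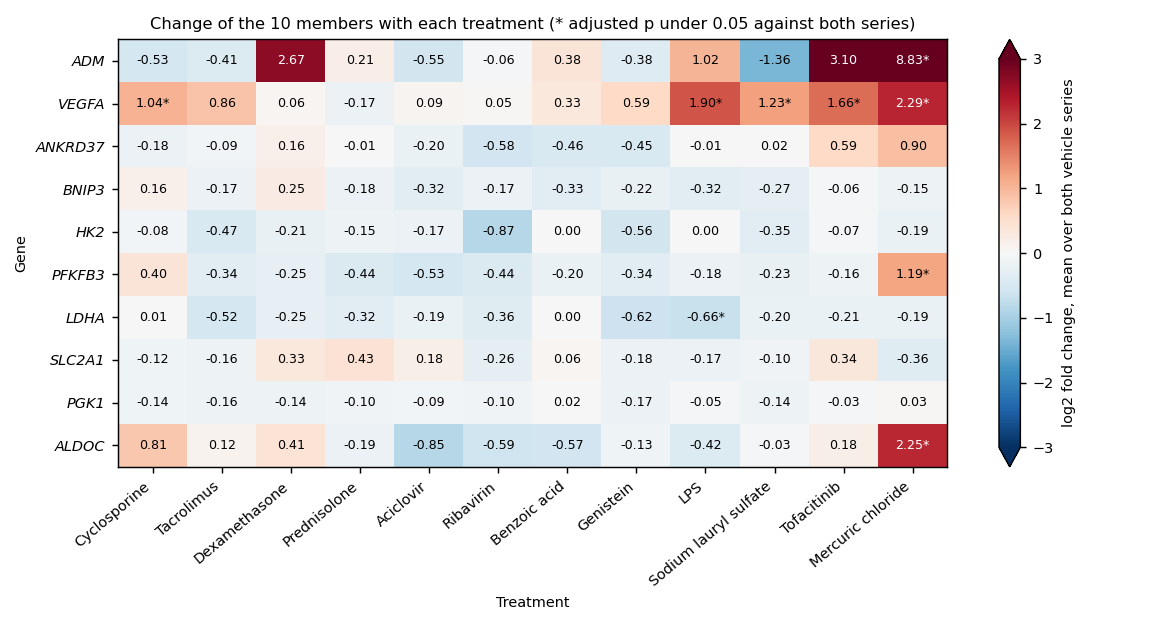
Log2 fold change of each of the 10 members (rows) with each of the 12 treatments (columns), as the mean over both vehicle series, in color and digits; asterisks mark adjusted p under 0.05 against both series. VEGFA carries 5 of the 9 asterisks, and the mercuric chloride column carries 4.

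The control series differ in many genes, which touches every comparison. Relative to series 1, series 2 held more LDHA, PFKFB3, ALDOC and BNIP3 and less SLC2A1 (4 of 10 members higher and 1 lower, where 15% of all genes were called higher, 15.2% lower and 30.1% in either direction). LDHA stood at 658, 708 and 648 CPM in vehicle series 1 and at 919, 937 and 923 CPM in vehicle series 2, and every untreated library of series 2 (910 CPM and above) lay above every one of series 1 (744 CPM and below). The log2 difference over vehicle and untreated libraries together was 0.48 ± 0.09 (SE, n = 6 per series, adjusted p = 2.64e-05).

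PFKFB3, which makes the fructose 2,6-bisphosphate that speeds up glycolysis, differed by 0.70 ± 0.13 (adjusted p = 2.67e-05), with vehicle means of 15.8 ± 3.62 and 25.6 ± 3.61 CPM (SD, n = 3). ALDOC, an aldolase isoform, differed by 1.08 ± 0.25 (adjusted p = 0.000739), at 1.58 ± 0.631 and 3.76 ± 0.736 CPM in the vehicle libraries. BNIP3, a mitochondrial protein that promotes mitophagy, differed by 0.42 ± 0.12 (adjusted p = 0.00628). For these genes the libraries of the series did not overlap within vehicle or within untreated controls. The share of all genes that separate in this way was not counted, and 30.1% of all genes were called between the series.

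SLC2A1, the glucose transporter GLUT1, was lower in series 2 by -0.23 ± 0.08 (adjusted p = 0.0329), and this call was lost without the mercuric chloride group (adjusted p = 0.0522) and when any of 7 of the 12 control libraries was left out (adjusted p of 0.0515 to 0.079). Those libraries were vehicle series 1 replicates 2 and 3, vehicle series 2 replicates 1 and 2, untreated series 1 replicates 2 and 3 and untreated series 2 replicate 1. With total counts in place of TMM scaling, the share of all called genes that was higher in series 2 went from 49.7 to 35.0%. ADM, VEGFA, ANKRD37, HK2 and PGK1 were not called between the series, though HK2 was without untreated series 1 replicate 3 (0.47, adjusted p = 0.0409) and in the fit of only the control libraries (adjusted p = 0.0457). The 95% interval for PGK1 ran from -0.12 to 0.10.

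Within vehicle libraries alone BNIP3, PFKFB3, LDHA, SLC2A1 and ALDOC were called between the series, and within untreated libraries PFKFB3 and LDHA were. A difference of the vehicle effect between the series was not called for any member (edgeR, smallest unadjusted p = 0.132, for SLC2A1). DMSO itself, as vehicle against untreated libraries with the series averaged, gave 0 calls among members and 0 among all genes (0% of genes) with edgeR, DESeq2 and limma-voom, while 0 members and 463 genes had an unadjusted p under 0.05. VEGFA had the interval nearest to a difference, from -0.06 to 0.55 around a log2 value of 0.24.

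**Figure D2:**
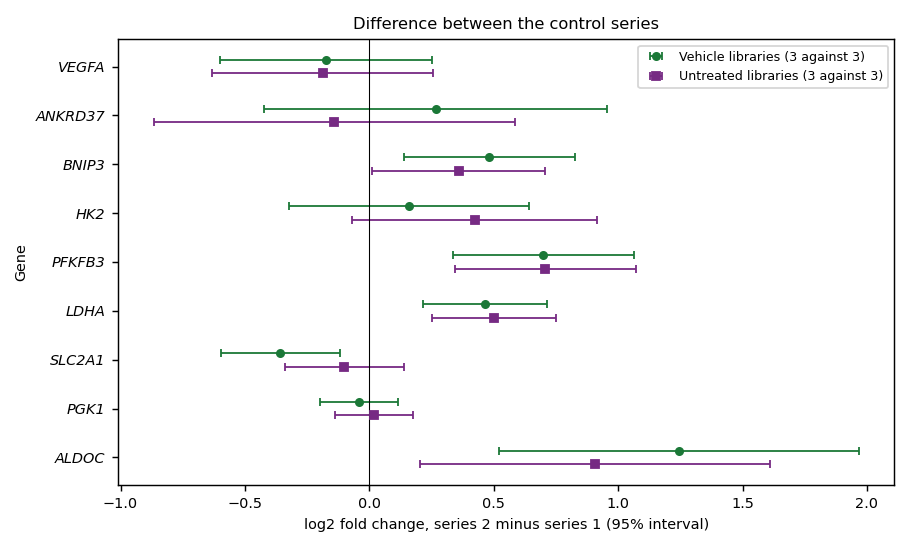
Log2 fold change of series 2 against series 1 with its 95% interval (horizontal axis) for 9 members, in vehicle libraries (circles) and untreated libraries (squares), 3 against 3 each; ADM, with 13 counts in all 6 vehicle libraries, is left out. PFKFB3, LDHA and ALDOC lie to the right of 0 in both, and PGK1 lies at 0.

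ADM encodes adrenomedullin, a secreted peptide that widens vessels. The mercuric chloride libraries held 546, 443 and 390 ADM counts, or 105, 96.5 and 80.5 CPM. The vehicle libraries held 3, 0 and 0 counts in series 1 and 3, 4 and 3 counts in series 2. Control libraries were thus at or near the floor of the measurement, and no mercuric chloride library came near them. Of all genes, 26.2% lay above all vehicle libraries with mercuric chloride.

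The ratio of scaled ADM counts with mercuric chloride to all 6 vehicle libraries was 421, with an exact binomial 95% interval of 245 to 792 that covers counting error only. It was 1001 (342 to 4858) against vehicle series 1 and 247 (134 to 516) against series 2, so the size of the change rests on few vehicle counts. The adjusted p was 5.17e-13, and leaving out any 1 library kept the call.

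Tofacitinib gave 15, 18 and 13 ADM counts, also above each of the 6 vehicle libraries, as 6.67% of all genes were with tofacitinib. The ratio was 7.79 (4.14 to 15.7) against both vehicle series, at an adjusted p of 0.271, which is not a call. Against vehicle series 1 alone the gene was called, and against series 2 alone it was not.

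Dexamethasone libraries had 4, 34 and 0 ADM counts, so that 1 library carried the group (adjusted p = 0.289). LPS gave 0, 11 and 2 counts and benzoic acid 0, 0 and 8, and in each of these groups 1 library held most of the counts. The other 7 treatments held between 2 and 7 ADM counts over their 3 libraries.

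VEGFA encodes vascular endothelial growth factor A, the secreted signal that starts new vessel growth. Vehicle libraries of series 1 had 15.3, 14.8 and 16.6 CPM and those of series 2 had 15.1, 11.5 and 14.8 CPM. With mercuric chloride they had 67.4, 77.1 and 70.4 CPM, with LPS 53.9, 55.9 and 54.2 CPM, and with tofacitinib 49.8, 46.6 and 43.1 CPM. The vehicle libraries formed a narrow band, and each of these 3 groups lay clear of it and of the next group in the order.

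The log2 fold changes were 2.29 ± 0.17 with mercuric chloride (adjusted p = 1.16e-12), 1.90 ± 0.16 with LPS (adjusted p = 9.03e-10) and 1.66 ± 0.17 with tofacitinib (adjusted p = 3.88e-07). Sodium lauryl sulfate followed with 36.3, 35.2 and 31.7 CPM (1.23 ± 0.17, adjusted p = 0.000535). These 4 calls held under all alternatives run for them and with any 1 of their libraries left out.

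Cyclosporine libraries had 28.2, 36.5 and 25.2 CPM of VEGFA, a change of 1.04 ± 0.17 (adjusted p = 0.00584). Without cyclosporine replicate 2, the highest of the 3, the change was 0.86 and not called (adjusted p = 0.102). Tacrolimus libraries, at 27.7, 29.7 and 22.6 CPM, and genistein libraries, at 23.7, 22.5 and 20.2 CPM, also lay above all 6 vehicle libraries.

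Their changes of 0.86 ± 0.17 (adjusted p = 0.293) and 0.59 ± 0.17 (adjusted p = 0.628) were not called. In a fit of only the 9 libraries compared both were called (adjusted p = 0.0034 for tacrolimus and 0.0207 for genistein), and against untreated libraries tacrolimus was called as well (adjusted p = 0.0316). In all, VEGFA lay above all vehicle libraries with 7 of 12 treatments, 2 of them without a call, and below them with 0. The share of all genes lying above all 6 vehicle libraries in the same way was 26.2% with mercuric chloride, 9.6% with LPS, 6.67% with tofacitinib, 5.77% with cyclosporine, 5.31% with genistein, 4.02% with sodium lauryl sulfate and 3.54% with tacrolimus. Dexamethasone, at 19.7, 17.8 and 8.65 CPM, and aciclovir, at 22.0, 9.54 and 15.3 CPM, were spread widely around the vehicle values.

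**Figure D3:**
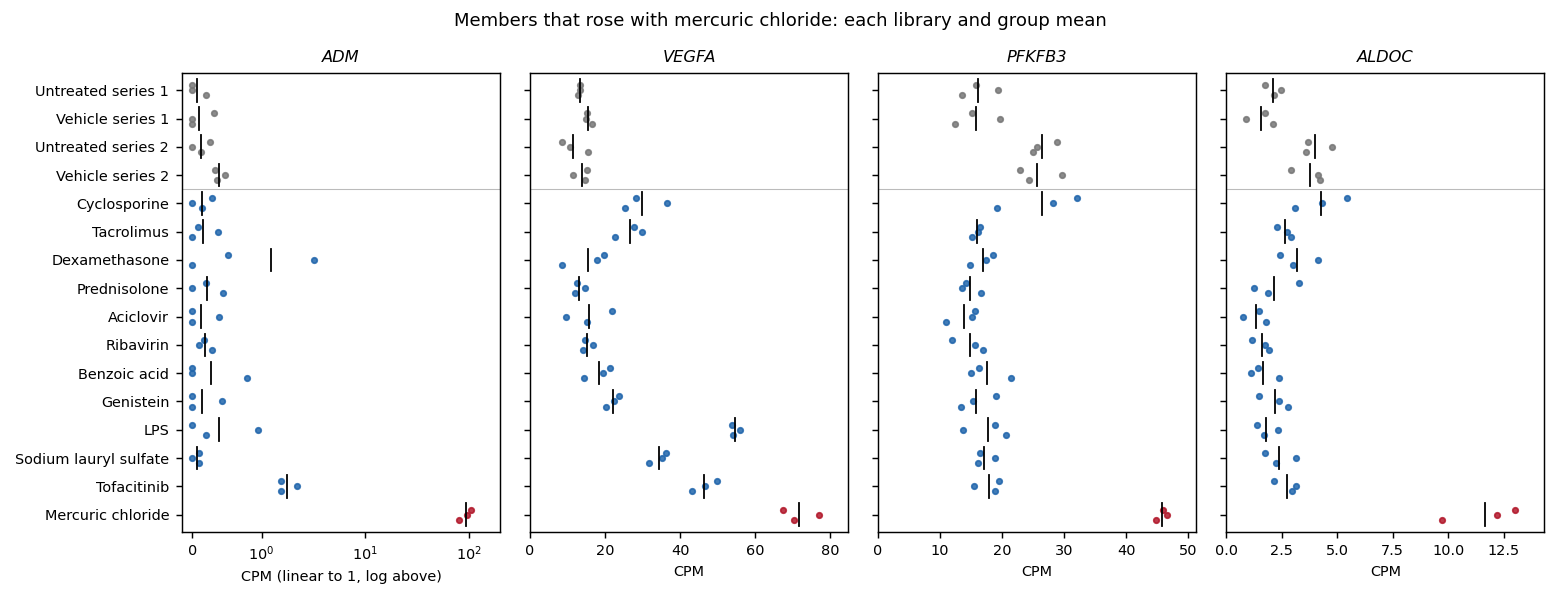
Level of ADM, VEGFA, PFKFB3 and ALDOC in CPM (horizontal axes; for ADM linear to 1 and logarithmic above) in each library (points) and as the group mean (vertical lines) for the 4 control groups (grey), 11 treatments (blue) and mercuric chloride (red). The mercuric chloride points stand highest in all 4 panels, and VEGFA shows further groups between them and the controls.

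ANKRD37, a small ankyrin repeat protein known as a HIF target, and BNIP3 stand for targets outside glycolysis. ANKRD37 was low, at 25, 21 and 42 counts in vehicle series 1 and 27, 29 and 31 in series 2. Mercuric chloride gave 6.13, 5.45 and 5.37 CPM and tofacitinib 5.12, 4.02 and 4.52 CPM, and all of these exceeded the highest vehicle library, at 3.88 CPM. Of all genes, 26.2% lay above all vehicle libraries in this way with mercuric chloride and 6.67% with tofacitinib. The mercuric chloride change of 0.90 ± 0.30 missed the threshold (adjusted p = 0.073).

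It was called with DESeq2 (adjusted p = 0.0482), with RLE scaling (adjusted p = 0.0481), in the fit of only the libraries compared (adjusted p = 0.0401) and against untreated libraries (adjusted p = 0.00659). ANKRD37 is uncertain for a further reason: in the GRCh38 annotation its span overlaps UFSP2 and LRP2BP, and whether the counting used strand is not given in the sources used here. LRP2BP rose with mercuric chloride from 0.554 ± 0.417 and 0.831 ± 0.244 CPM in the vehicle series to 5.97 ± 1.28 CPM (log2 3.10 ± 0.48, adjusted p = 0.000109). UFSP2 did not pass (0.39 ± 0.18, adjusted p = 0.343).

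BNIP3 ranged only from 20.1 to 30.1 CPM as group means and was called with no treatment. Mercuric chloride libraries, at 23.2, 22.2 and 22.9 CPM, lay between the vehicle series. Dexamethasone replicates 1 and 2 had 38.1 and 37.1 CPM, above every other library of the study, whereas replicate 3 had 15.3 CPM, below every other. BNIP3 overlaps PPP2R2D, which was not called with any treatment (log2 changes of -0.17 to 0.06).

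SLC2A1 brings glucose into the cell. Prednisolone libraries had 139, 133 and 126 CPM and tofacitinib libraries 116, 136 and 121 CPM, all above the 83.6 to 114 CPM of the 6 vehicle libraries, as 6.43 and 6.67% of all genes were. Neither change was called, at 0.43 ± 0.10 (adjusted p = 0.575) and 0.34 ± 0.10 (adjusted p = 0.959), because the value against vehicle series 1 was the smaller one, 0.25 and 0.16. In the fit of only the libraries compared prednisolone was called (adjusted p = 0.00967).

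Dexamethasone had 142, 147 and 80.7 CPM of SLC2A1. The change was 0.33 ± 0.10 with all 3 libraries (adjusted p = 0.659) and 0.56 without replicate 3 (adjusted p = 0.00596). With mercuric chloride the libraries, at 82.4, 76.9 and 70.8 CPM, lay below all vehicle libraries, as 24.4% of all genes did, by less than the test required (-0.36 ± 0.11, adjusted p = 0.281). With total counts in place of TMM scaling this was a fall of -0.76 (adjusted p = 0.000281).

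HK2 encodes hexokinase 2, which traps glucose as glucose 6-phosphate. Ribavirin gave the lowest group, 11.1, 11.5 and 10.9 CPM, against 15.1 to 25.4 CPM in the vehicle libraries. The groups did not overlap, as for 4.3% of all genes in this direction, and the change of -0.87 ± 0.22 was not called (adjusted p = 0.274). It was called in the fit of only the libraries compared (adjusted p = 0.0177).

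HK2 varied widely between libraries of 1 group, with 19.2, 25.6 and 7.84 CPM under dexamethasone and 18.7, 14.9 and 27.7 CPM under benzoic acid. Under genistein, at 13.9, 12.5 and 15.1 CPM, all libraries lay below the vehicle libraries, as for 5.95% of all genes (-0.56 ± 0.21, adjusted p = 0.978).

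PFKFB3 rose with mercuric chloride to 46.0, 46.6 and 44.8 CPM. The vehicle libraries had 15.2, 19.6 and 12.5 CPM in series 1 and 22.9, 29.7 and 24.3 CPM in series 2, all below, as for 26.2% of all genes. The log2 change was 1.19 ± 0.15 (adjusted p = 0.000121), made of 1.54 against series 1 and 0.84 against series 2. With total counts in place of TMM scaling it was 0.79 (adjusted p = 0.0207).

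Cyclosporine had 32.1, 28.2 and 19.1 CPM of PFKFB3, spread over and around the range of vehicle series 2, and it was not called (0.40 ± 0.15, adjusted p = 1). In the other 10 treatments the PFKFB3 means were between 13.9 and 17.9 CPM, near vehicle series 1.

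ALDOC splits fructose 1,6-bisphosphate into 3-carbon units and is best known from brain. It had 68, 56 and 47 counts with mercuric chloride, or 13.0, 12.2 and 9.7 CPM. Vehicle libraries had 17, 10 and 23 counts in series 1 and 27, 35 and 36 in series 2, and the highest of them stood at 4.23 CPM. The groups did not overlap, as for 26.2% of all genes in this direction, and the change of 2.25 ± 0.28 was called (adjusted p = 5.59e-05). With the other treatments group means ran from 1.35 CPM (aciclovir) to 4.29 CPM (cyclosporine), and none was called.

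Beside ADM and ALDOC, which are low in control cells, other low genes moved up with mercuric chloride too. Among 4833 genes with a vehicle mean under 5 CPM, the median log2 change with mercuric chloride was 0.67 and 29.7% were called higher, but 690 of them passed the filter on low counts only with the mercuric chloride libraries, which fixes their direction. Over the other 4143 the median was 0.40 and 20.4% were called higher, against 18.8% of all genes that pass without that group. Summed fibroblast and erythroid markers, which a monocytic line should lack, were also highest there, at group means of 30.7 and 18.4 CPM (4 and 5 markers, none at 0 in all libraries, libraries of the series ranging from 0 to 32.2 and 0 to 22.1 CPM). COL1A1 alone reached 31.6 CPM and HBA2 16.3 CPM. The summed monocytic markers were lowest with mercuric chloride, at a group mean of 380 CPM, and highest with LPS, at 781 CPM. The part of these in the members' rise was not tested. In these bulk libraries fewer cells of a type and less RNA per cell cannot be told apart.

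PGK1 encodes phosphoglycerate kinase 1, an ATP-making step of glycolysis and a textbook HIF target. It was the steadiest member, with group means from 263 to 301 CPM, a ratio of 1.14. Mercuric chloride libraries had 292, 283 and 328 CPM, and vehicle libraries 284 to 306 CPM. The log2 changes over the 12 treatments ran from -0.17 to 0.03 and none was called. With cyclosporine, dexamethasone, prednisolone and tacrolimus all PGK1 libraries lay below all vehicle libraries. The shares of all genes that did so were 5.59, 7.37, 6.36 and 3.26%. In mercuric chloride the value depended on scaling: it was 0.03 ± 0.07 with TMM and -0.37 (adjusted p = 0.000544) with total counts only, a setting that moved the median of all genes to -0.41.

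LDHA encodes the lactate dehydrogenase subunit that turns pyruvate into lactate. LPS libraries had 468, 522 and 509 CPM, below the lowest vehicle library at 648 CPM. The change of -0.66 ± 0.11 was called (adjusted p = 0.0226), with -0.43 against series 1 and -0.89 against series 2. The call was lost without LPS replicate 1 (adjusted p = 0.129), LPS replicate 3 (adjusted p = 0.0518) or vehicle series 1 replicate 2 (adjusted p = 0.109).

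Genistein, at 503, 517 and 520 CPM of LDHA, tacrolimus, at 581, 535 and 529 CPM, and prednisolone, at 636, 636 and 618 CPM, also lay below all vehicle libraries, as 5.95, 3.26 and 6.36% of all genes did with these treatments, and 7.9% with LPS. None was called, at -0.62 ± 0.11 (adjusted p = 0.353), -0.52 ± 0.11 (adjusted p = 1) and -0.32 ± 0.11 (adjusted p = 1). In fits of only the libraries compared genistein (adjusted p = 1.67e-08) and tacrolimus (adjusted p = 0.00507) were called. Benzoic acid had 626 and 627 CPM in replicates 1 and 2 and 1110 CPM in replicate 3, the highest LDHA value of the study. LDHA with mercuric chloride, at 785, 632 and 652 CPM, overlapped vehicle series 1 and was not called, but with total counts only it was a fall of -0.59 (adjusted p = 0.004).

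**Figure D4:**
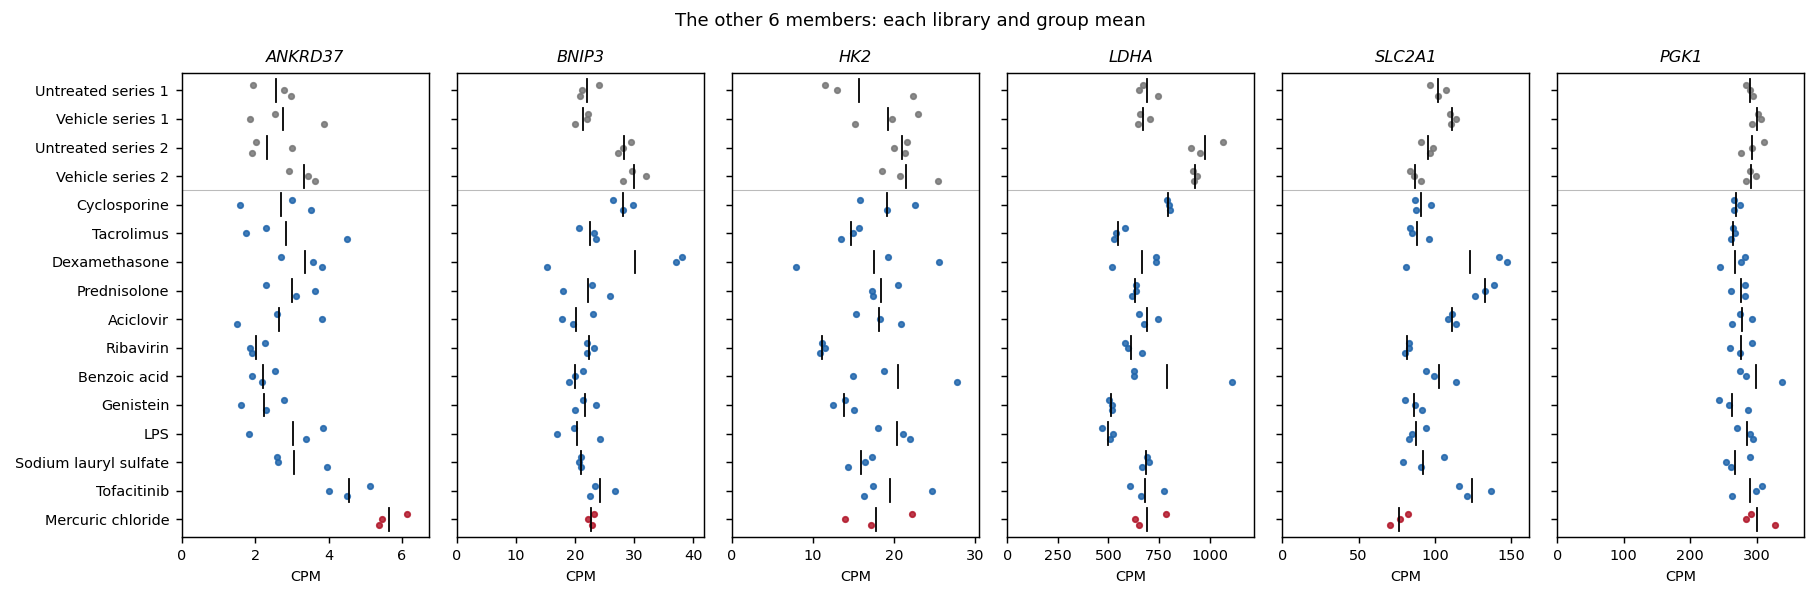
Level of ANKRD37, BNIP3, HK2, LDHA, SLC2A1 and PGK1 in CPM (horizontal axes, from 0) in each library (points) and as the group mean (vertical lines), in the same order and colors of groups as for the induced members. LDHA is lowest with LPS, genistein and tacrolimus, dexamethasone replicate 3 falls away from its group for BNIP3, HK2 and SLC2A1, and PGK1 is nearly level.

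Pairs of related compounds were compared directly, each at its own CV90 and so not at known matched doses. Cyclosporine and tacrolimus, which both inhibit calcineurin but differ in chemical class (a cyclic peptide and a macrolide), differed in 2 of 10 members, both higher with cyclosporine, where 10.9% of all genes were called higher, 9.24% lower and 20.2% in either direction. LDHA differed by 0.54 ± 0.12 (adjusted p = 0.00131), from libraries at 787 to 803 CPM and 529 to 581 CPM, and PFKFB3 by 0.73 ± 0.18 (adjusted p = 0.00281). These are also among the genes that differed between the control series, and the series each compound belongs to cannot be told apart from the compound. VEGFA differed by 0.17 with an interval of -0.22 to 0.57 (adjusted p = 0.61). With total counts only, the share of called genes higher with cyclosporine went from 54.2 to 36.3%.

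Aciclovir and ribavirin differed in SLC2A1 (1 of 10 members, where 2.49% of all genes were called higher with aciclovir, 3.27% lower and 5.76% in either direction), at 111, 109 and 114 CPM against 83.1, 82.7 and 80.1 CPM. The difference was 0.44 ± 0.12 (adjusted p = 0.0175), and the call was lost without aciclovir replicate 3 (adjusted p = 0.0715), ribavirin replicate 2 (adjusted p = 0.0525) or ribavirin replicate 3 (adjusted p = 0.095). HK2 differed by 0.70 ± 0.25 with an interval of 0.20 to 1.20 (adjusted p = 0.0872), which was called without the filter on low counts (adjusted p = 0.0438) and in the fit of only the libraries compared (adjusted p = 0.0182).

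Dexamethasone and prednisolone, which share the steroid frame of glucocorticoids, gave 0 of 10 calls, where 9.23% of all genes were called. DESeq2 and limma-voom also gave 0, and 2 members, ADM and BNIP3, had an unadjusted p under 0.05. BNIP3 differed by 0.43 with an interval of 0.09 to 0.78 (adjusted p = 0.0979), and without dexamethasone replicate 3 by 0.75 (adjusted p = 0.000194). ADM differed by a fitted log2 value of 2.47 (interval 0.56 to 4.37, adjusted p = 0.0884). It was called without dexamethasone replicate 3 (adjusted p = 0.025) or replicate 1 (adjusted p = 0.0457), and rests on replicate 2. SLC2A1 differed by -0.11 (interval -0.34 to 0.13).

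Mercuric chloride was also set against cyclosporine, and 5 of 10 members were higher with mercuric chloride, where 25.4% of all genes were called higher, 25.3% lower and 50.7% in either direction. VEGFA was higher by 1.25 ± 0.20 (adjusted p = 6.5e-07), PFKFB3 by 0.79 ± 0.18 (adjusted p = 0.000236), ALDOC by 1.44 ± 0.33 (adjusted p = 0.00025) and ANKRD37 by 1.08 ± 0.36 (adjusted p = 0.0104). ADM had 1379 counts against 3 over the libraries of each group (adjusted p = 2.31e-13). The ANKRD37 call was lost without cyclosporine replicate 2 (adjusted p = 0.094) and with total counts only (adjusted p = 0.0807), and with total counts only the PFKFB3 difference was 0.43 (adjusted p = 0.034). That setting also took the share of called genes higher with mercuric chloride from 50.1 to 27.1%.

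Other genes of the pathway were read from 5 lists with 76 tested genes. The lists were chosen with earlier results of these data known. Their shares beside those of all genes are therefore a description, here and for every comparison below. With mercuric chloride 30 of the 76 were higher (39.5%) and 6 lower, where 21.8% of all genes were called higher and 20.1% lower. Of the 30, EGLN3, ANGPTL4 and PGF passed the filter on low counts only with the mercuric chloride libraries, so their direction was fixed. Over the 73 that pass without them 27 were higher (37%) and 6 lower, against 18.8 and 21% of all genes that do. With total counts only, 22 were higher and 24 lower, and of all called genes 26.9% were higher against 52.0% with TMM scaling. The counts for upregulated list genes therefore depend on scaling, and they are given with both.

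Of 28 other hypoxia-induced genes, 15 were higher with mercuric chloride and 3 lower (12 and 7 with total counts only), and 14 and 3 of the 27 that pass the filter without that group, with a median log2 change of 0.61. ANGPTL4, a secreted lipase inhibitor, went from a vehicle mean of 0.0549 to 9.84 CPM, and DUSP1, a phosphatase of MAP kinases, from 0.483 to 30.2 CPM (adjusted p = 4.5e-10). Both were below 1 CPM in the vehicle libraries on average.

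Of 11 genes of HIF and oxygen sensing, 4 were higher and 0 lower (3 and 4 with total counts only), and 3 and 0 of the 10 that pass the filter without mercuric chloride. EGLN3, the oxygen sensor that HIF itself induces, went from 0.0751 to 3.19 CPM. VHL rose by 1.11 ± 0.07 (adjusted p = 6.55e-14) and CREBBP, a HIF coactivator, by 0.85 ± 0.10 (adjusted p = 3.39e-06).

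Among 14 other glycolysis enzymes 4 were higher and 1 lower with TMM scaling, but 1 higher and 5 lower with total counts only. ENO2, an enolase isoform, rose by 2.75 ± 0.38 (adjusted p = 4.76e-06). GAPDH changed by 0.59 ± 0.09 (adjusted p = 1.24e-05) and TPI1 by 0.48 ± 0.07 (adjusted p = 2.88e-05), sizes close to the shift of the all-gene median to -0.41 with total counts only.

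Of 16 genes for glucose and lactate transport, the PFKFB family and pyruvate entry, 3 were higher and 2 lower (2 and 8 with total counts only). SLC2A3, the glucose transporter GLUT3, rose by 2.36 ± 0.28 (adjusted p = 3.95e-06), but SLC2A14 is a near-identical copy (1.82 ± 0.33, adjusted p = 0.00734), so reads may be split between them. PFKFB4 rose by 1.43 ± 0.28 (adjusted p = 0.00233). Among 7 tested genes, VEGF receptors or paralogs of ADM and VEGFA, 4 were higher and 0 lower under both scalings. Of the 6 that pass the filter without mercuric chloride 3 were higher and 0 lower. The adrenomedullin receptor genes CALCRL, RAMP1, RAMP2 and RAMP3, and KDR, did not pass the filter on low counts and were not tested. FLT1, a VEGF receptor, rose from 0.99 to 17.3 CPM (adjusted p = 7.56e-07), and ADM2, an adrenomedullin paralog, from 4.74 to 45.2 CPM (adjusted p = 1.19e-16). PGF, a VEGF family ligand, had 0.225 CPM in the vehicle libraries and 3.8 CPM with mercuric chloride.

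**Figure D5:**
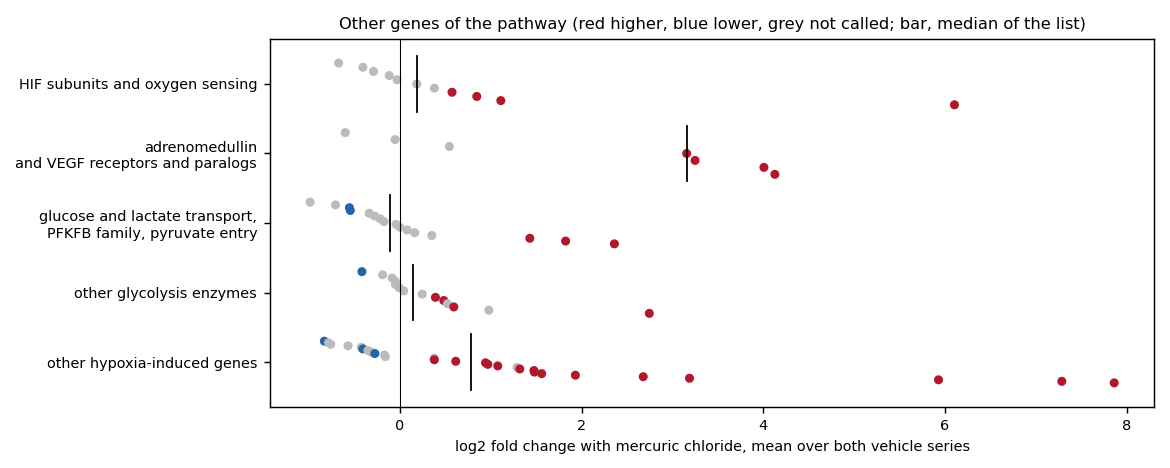
Log2 fold change with mercuric chloride, as the mean over both vehicle series (horizontal axis), of each tested gene in 5 lists of the pathway; red points were called higher, blue points lower and grey points not called, and vertical lines mark list medians. The receptor list and the hypoxia-induced list have the highest medians, while most glycolysis and transport genes lie near 0.

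With tofacitinib 6 of the 76 list genes were higher (7.89%) and 1 lower (1.32%), where 1.09% of all genes were called higher and 1.23% lower. The higher ones included STC2, a secreted glycoprotein (3.32 ± 0.34, adjusted p = 1.42e-06), ADM2 (2.48 ± 0.18, adjusted p = 4.6e-11) and DDIT4, an inhibitor of mTORC1 (2.10 ± 0.17, adjusted p = 4.39e-08). ZNF395, a transcription factor, rose by 0.89 ± 0.09 (adjusted p = 1.5e-06). PGAM1, a glycolysis enzyme, fell by 0.64 on the log2 scale (adjusted p = 0.00327). With cyclosporine 3 were higher (3.95%, against 0.703% of all genes) and 0 lower: STC2 (3.10 ± 0.34), ADM2 (2.27 ± 0.18) and DDIT4 (1.57 ± 0.18). With sodium lauryl sulfate 3 were higher (3.95%, against 0.281% of all genes) and 0 lower: PDK4, which shuts pyruvate out of mitochondria (3.50 ± 0.25), STC2 (2.73 ± 0.34) and ADM2 (2.29 ± 0.18). The comparisons share their vehicle libraries.

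With LPS 7 of the 76 were higher (9.21%) and 6 lower (7.89%), where 4.56% of all genes were called higher and 2.64% lower. The lysosomal hexose transporter SLC2A6 rose by 3.39 ± 0.13 to 139 CPM (adjusted p = 1.55e-20), the lactate exporter SLC16A3 by 0.72 ± 0.11 (adjusted p = 0.000383) and pyruvate kinase PKM by 0.74 ± 0.09 (adjusted p = 0.00014). LDHB, the other main lactate dehydrogenase subunit, fell by 0.35 on the log2 scale (adjusted p = 0.00124), as LDHA did. The VEGF coreceptors NRP2 (2.66 ± 0.60, adjusted p = 0.0425) and NRP1 (1.02 ± 0.20, adjusted p = 0.00408) rose. Of the hypoxia-induced list, TMEM45A rose by 1.36 ± 0.19, while MXI1, a MYC antagonist, fell by 0.92 and ZNF395 by 0.74 on the log2 scale. The paralog ADM2 fell by 0.90 on the log2 scale (adjusted p = 0.0357), in the direction opposite to that with the other 4 treatments that raised VEGFA. ADM2 also rose with tacrolimus and with dexamethasone (1.09 ± 0.19, adjusted p = 0.00116), with which VEGFA was not called. Without dexamethasone replicate 3 the ADM2 change was 0.85 (adjusted p = 0.0361).

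In the comparisons between groups, the counts over the 76 list genes were 14 higher and 12 lower in control series 2, 13 higher and 8 lower with cyclosporine than with tacrolimus, 2 and 4 with aciclovir than with ribavirin, 10 and 0 with dexamethasone than with prednisolone (12 and 0 without dexamethasone replicate 3), and 29 and 10 with mercuric chloride than with cyclosporine (24 and 30 with total counts only). The list shares in control series 2 were 18.4% higher and 15.8% lower, near the 15 and 15.2% of all genes. They were 17.1 and 10.5% for cyclosporine against tacrolimus, where 10.9 and 9.24% of all genes were called, and 2.63 and 5.26% for aciclovir against ribavirin, where 2.49 and 3.27% were. For mercuric chloride against cyclosporine they were 38.2 and 13.2%, where 25.4 and 25.3% of all genes were called (the 29 include EGLN3, ANGPTL4 and PGF), and for dexamethasone against prednisolone 13.2 and 0%, where 9.23% of all genes were called in either direction. That last share covers both directions together, and none is given for the fit without dexamethasone replicate 3. Control series 2 held more of the glycolysis enzymes PFKP (0.66 ± 0.07) and HK1 (0.54 ± 0.12) and of PDHA1, a subunit of pyruvate dehydrogenase (0.58 ± 0.10), and less of the oxygen sensor EGLN1 (-0.46 ± 0.07) and of HK3 (-0.73 ± 0.26). PFKP (0.81 ± 0.10) and HK1 (0.60 ± 0.18) were also higher, and EGLN1 (-0.63 ± 0.10) and HK3 (-1.42 ± 0.40) lower, with cyclosporine than with tacrolimus. Aciclovir against ribavirin gave more LDHB (0.22 ± 0.06) and PGAM1 (0.33 ± 0.10) and less ENO2 (-1.68 ± 0.51). Mercuric chloride against cyclosporine gave more ENO2 (3.02 ± 0.49), TPI1 (0.64 ± 0.09) and ALDOA (0.46 ± 0.08). The list counts were 0 in both directions with aciclovir, benzoic acid, genistein and ribavirin and between vehicle and untreated libraries, and with tacrolimus ADM2 alone was higher (1.45 ± 0.19, adjusted p = 0.000834).

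Genes whose pattern was most like each member over the 16 group means, among 10956 genes with a mean of at least 5 CPM, are given as a description, since groups share the mercuric chloride libraries and the control series. PFKFB3 was most like SRXN1 (r = 0.98) and ZBTB7A (0.98), LDHA like SLIRP (0.94) and PARK7 (0.92), VEGFA like LGALS1 (0.92) and PIP5K1A (0.90), and ALDOC like MGEA5 (0.95) and NMT2 (0.95). ADM was most like MTCH1 (0.97) and ANKRD10 (0.97), a pattern set by 1 group. BNIP3 was most like RAB11FIP2 (0.91) and WBP1L (0.90), HK2 like NDUFB2-AS1 (0.89) and CCBL2 (0.85), SLC2A1 like SDR39U1 (0.85) and RREB1 (0.83), ANKRD37 like P4HA2 (0.82) and MICALL1 (0.81), and PGK1 like H2AFZ (0.80) and RBM14-RBM4 (0.74). Without the mercuric chloride group, RAB11FIP2, NDUFB2-AS1 and SLIRP stayed in first place for BNIP3, HK2 and LDHA. Among members, PFKFB3 and ALDOC had the most similar patterns over 16 groups (r = 0.93, and 0.84 over 15), and BNIP3 and ALDOC over the 15 without mercuric chloride (r = 0.90), whereas ADM and VEGFA, both secreted signals, were not among the pairs above 0.7.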

How the data were processed

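RNA of 48 libraries (500 ng input and a LEXOGEN Quant-Seq kit, per the labels' protocols) had been sequenced, and the authors deposited raw counts per gene, 1 file per library. Bowtie2, bedtools and the hg19 (GRCh37) build appear in the submitters' processing notes; their versions and roles, and the strand setting of counting, are not stated there. Each file had 25737 rows; 286 symbols on 1561 rows (1.36% of counts) were summed, leaving 24462 symbols, of which 15642 passed edgeR's filterByExpr.

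The fit was edgeR 4.0.16 (R 4.3.3) quasi-likelihood over 16 groups with TMM scaling, 32 residual degrees of freedom and a common biological coefficient of variation of 0.122. A treatment was tested against each vehicle series, and direct comparisons used a single contrast. DESeq2 1.42.0, limma 3.58.1 (voom), other scalings, filters, controls and left-out libraries were alternatives. The steps were tested on simulated data in which both vehicle series shared a mean. The rule that asks for both series was therefore not checked under a difference between them. Whether the 3 libraries per group are separate cultures is not said in the labels; p-values therefore describe library-to-library spread, possibly technical. Chi-square per degree of freedom between the 48 pairs of libraries of a group was 2.13 to 43.1, so none agreed within sampling noise.

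Members and lists were chosen with earlier results of these data known. Named genes are the 10 members, the 2 genes most like each, genes that overlap a member, and up to 3 called genes per list with the highest absolute fold change where members were called; a selection of these is printed for comparisons between groups, and 1 of them is not reported here. Promoter windows are RefSeq's, on GRCh38.p14, and no hg19 coordinate is used. Intervals on counts cover counting error only.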

Additional observations from a re-analysis of the deposited data

How the results depend on the processing

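Requiring both vehicle series made the calls strict. BNIP3, PFKFB3, LDHA, SLC2A1 and ALDOC also differed between the control series themselves. Mean LDHA was 690 CPM with aciclovir, 671 CPM in vehicle series 1 and 927 CPM in vehicle series 2. In that order PFKFB3 had 13.9, 15.8 and 25.6 CPM, SLC2A1 111, 111 and 86.8, and BNIP3 20.2, 21.4 and 29.9. ALDOC had 1.35, 1.58 and 3.76 CPM. The part of this difference in the counts against a single series was not tested. Against vehicle series 2 alone the number of members called was 5 with aciclovir and LPS, 4 with genistein, ribavirin, sodium lauryl sulfate and tofacitinib, 3 with dexamethasone, prednisolone and tacrolimus, and 2 with benzoic acid. Against vehicle series 1 alone it was 3 with cyclosporine and dexamethasone, 2 with tofacitinib and 1 with ribavirin. In fits of only the libraries compared it was 2 with genistein, with tacrolimus and for aciclovir against ribavirin, and 1 with prednisolone and ribavirin. Without a filter on low counts it was 2 for aciclovir against ribavirin and 1 for dexamethasone against prednisolone, and with untreated libraries as the control it was 1 with tacrolimus. With total counts only it was 7 with mercuric chloride and 8 for mercuric chloride against cyclosporine, and PGK1 reversed, to -0.37 and -0.20 (adjusted p = 0.000544 and 0.0254). That setting took the share of called genes that were higher from 59.3 to 42.3% for dexamethasone against prednisolone, from 21.6 to 56.7% with genistein, from 67.8 to 77.9% with prednisolone, from 44.4 to 72.7% with tacrolimus and from 47.1 to 57.3% with tofacitinib. The cause of these shifts was not tested.

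Leaving out 1 library, members called ranged from 0 to 1 with cyclosporine, with dexamethasone and for aciclovir against ribavirin, from 1 to 2 with LPS, from 4 to 5 between the control series and for mercuric chloride against cyclosporine, and from 0 to 2 for dexamethasone against prednisolone. The other comparisons kept their count. Replicate numbers did not pair the libraries (correlations of -0.084 to 0.036 over 72 pairs, 25 of which correlated best with their own number), and with the replicate block 180 of 180 member results kept their direction and their side of the threshold, as did 180 with limma-voom. List counts under other scalings and under a filter without the mercuric chloride group, and the shares of all genes that do not overlap, were added after seeing the data; with RLE and with upper-quartile scaling 31 list genes were higher and 4 lower with mercuric chloride.

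Depth limits ADM, ANKRD37 and ALDOC most, whose vehicle libraries held at most 42 counts. Doses, the control series of each treatment and the culture each library came from are not known.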

Other observations

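Some other hypoxia-induced genes were called with the glucocorticoids, with which no member was in the fit of all libraries. These genes were chosen after their values were seen. With dexamethasone 7 of 28 genes of that list were higher and 0 lower by edgeR's test, where 8.57% of all genes were called in either direction. Over all 76 list genes 11 were higher (14.5%) and 1 lower (1.32%) with dexamethasone. Without dexamethasone replicate 3, 9 of 79 list genes were higher and 1 lower. With prednisolone 3 of the 76 were higher (3.95%) and 1 lower (1.32%). The all-gene shares given here cover both directions together, and none is given for the fit without replicate 3. These list counts are therefore not read as an excess. DDIT4, an inhibitor of mTORC1, went from a vehicle mean of 5.02 to 68.0 CPM with dexamethasone (log2 3.79 ± 0.16, adjusted p = 4.81e-18) and to 30.4 CPM with prednisolone (2.64 ± 0.16, adjusted p = 6.45e-12). DUSP1 went from a vehicle mean of 0.483 to 3.11 CPM with dexamethasone (2.66 ± 0.54, adjusted p = 0.00835). With prednisolone DUSP1 reached 3.19 CPM (2.69 ± 0.53, adjusted p = 0.02). TMEM45A (1.19 ± 0.19), ZNF395 (0.93 ± 0.09), BNIP3L, a mitophagy receptor (0.60 ± 0.15), and KDM4B, a histone demethylase (0.57 ± 0.10), also rose with dexamethasone. HIF1A itself rose by 0.46 ± 0.10 with dexamethasone (adjusted p = 0.0199). With prednisolone 3 of the 28 genes were higher and 1 lower, where 1.96% of all genes were called in either direction, the lower one being NDRG1 (-0.51 ± 0.09, adjusted p = 0.00667). A fit without dexamethasone replicate 3, which stood apart, was chosen after seeing the data. In that fit HIF1A (0.43, adjusted p = 0.0816) and KDM4B (0.44, adjusted p = 0.175) were no longer called. BNIP3L was at 0.91 (adjusted p = 1.64e-05), and DDIT4 (3.96), DUSP1 (3.10), TMEM45A (1.23) and ZNF395 (1.01) were still called. The member SLC2A1 was called with dexamethasone in that fit too, as given above. Both comparisons share the vehicle libraries. The list is named for hypoxia, and what raised its genes with the glucocorticoids was not tested.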
